A study of Mus musculus with 8 samples.

Results

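The expression of 10 genes of the Fat cadherin and Hippo pathway system was followed in cells sorted from tumor-bearing mouse lungs: the giant cadherins Fat1, Fat4 and Dchs1, the transcriptional co-activators Yap1 and Wwtr1 (the gene of TAZ), the DNA-binding factors Tead1, Tead2 and Tead4, and the secreted matricellular genes Ccn1 (CYR61) and Ccn2 (CTGF). They are 10 of the 27179 genes in the deposited count table and were matched by Entrez Gene identifier, and all 10 passed the filter on low counts that left 15583 genes. The genes were chosen from earlier results of these same data, in which Fat4 stood out between the sorted populations, so their differences between the populations are given here as a description, without p-values.

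The 8 libraries come from C57BL/6 mice carrying what the labels call an Eml4-Alk translocation, a rearrangement of both genes made in the lung with an adenovirus that delivers Cas9 and guide RNAs. The mice were 18 to 22 weeks old and 11 to 12 weeks past tumor induction, and all of them had received 4.5 nmol of the PEGylated probe QZ1, whose Cy5 fluorescence appears when proteases cut its linker, 2 h before the lungs were taken. Live cells without CD45 or CD11b were sorted by probe signal into QZ1-hi (4 libraries) and QZ1-lo (4 libraries). The question put to these libraries was how the cells tagged by the cleaved probe differ in expression from the untagged ones. The suspensions were prepared from dissected tumors and the tissue around them, so both populations can hold tumor and normal lung cells. Every animal carried the rearrangement and had received the probe, and no library of a healthy lung entered these comparisons. In such bulk samples, fewer cells of a type and less RNA per cell cannot be told apart.

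The Hippo pathway is a kinase cascade that restrains growth. MST kinases (Stk3, Stk4) with their partner SAV1 activate LATS kinases, which phosphorylate YAP and TAZ and keep them out of the nucleus, where they would otherwise drive transcription through TEAD factors, with Ccn1 and Ccn2 as classic targets. FAT4 and DCHS1 are giant cadherins that bind each other across neighbouring cells, FAT4 as the receptor-like partner and DCHS1 as its ligand, and in the developing kidney FAT4 acts largely in the stroma. FAT1 is a related cadherin of epithelial and other cells.

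TEAD factors bind DNA with the core letters GGAATG, read CATTCC on the other strand. The 250 bases before each annotated start were searched for these letters on both strands, because Ccn1 is a known TEAD target and other members may hold the same letters. RefSeq entries on GRCm38.p6 were found for 6 of the 10 genes (Fat1, Fat4, Yap1, Wwtr1, Tead2 and Ccn1), and 4 of these 6 held the letters, against 3880 of 27025 genes (14.4%) in the whole promoter table and 15 of 41 other Hippo pathway genes. The 4 windows of 60 bases are given 5′ to 3′ on the gene's strand, with the matched letters in capitals.
Fat1, chr8:44950079-44950138, plus strand: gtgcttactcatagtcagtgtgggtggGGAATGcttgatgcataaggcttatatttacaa
Yap1, chr9:8004705-8004764, minus strand: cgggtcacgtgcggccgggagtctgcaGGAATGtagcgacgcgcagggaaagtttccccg
Wwtr1, chr3:57576014-57576073, minus strand: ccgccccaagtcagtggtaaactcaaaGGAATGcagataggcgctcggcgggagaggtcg
Ccn1, chr3:145650056-145650115, minus strand: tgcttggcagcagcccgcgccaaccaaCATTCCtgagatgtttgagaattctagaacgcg

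The match lay 102 bases before the start in Fat1, 141 in Yap1, 103 in Ccn1, and 136 or 170 in Wwtr1, which has a pair of annotated starts. The Fat1 window lies inside the gene, before an internal start. No match was found in the windows of Fat4 and Tead2, which says only that these letters are not in that stretch. A match is a run of letters and not a measured binding site. Ccn1 was a known target before the search, and the Fat1 match precedes an internal start. Nothing is therefore read from the share of members that held the letters.

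Levels are CPM (the share of a library's counts, scaled by edgeR's TMM factors), and each log2 fold change sets QZ1-hi over QZ1-lo, with its standard error (SE) from edgeR's fit over all genes. Library totals were 18380918 to 26847938 counts, and a floor of 3 counts corresponds to 0.0894 to 0.179 CPM, which covers counting error only. Mitochondrial ribosomal RNA took 39.5% to 58.4% of the counts in QZ1-hi and 30.2% to 47.3% in QZ1-lo. At an adjusted p under 0.05 (edgeR's quasi-likelihood test, Benjamini-Hochberg), 2 of the 10 genes were called higher in QZ1-hi, beside 9.88% of all genes tested, and 3 were called lower, beside 8.21%. Libraries of the populations did not overlap for 5 of the 10 genes, beside 22.6% of all genes tested. Because the genes were selected on this contrast, nothing is read from these counts. Their median log2 fold change was 0.17, and that of all genes tested was 0.02.

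**Figure D1:**
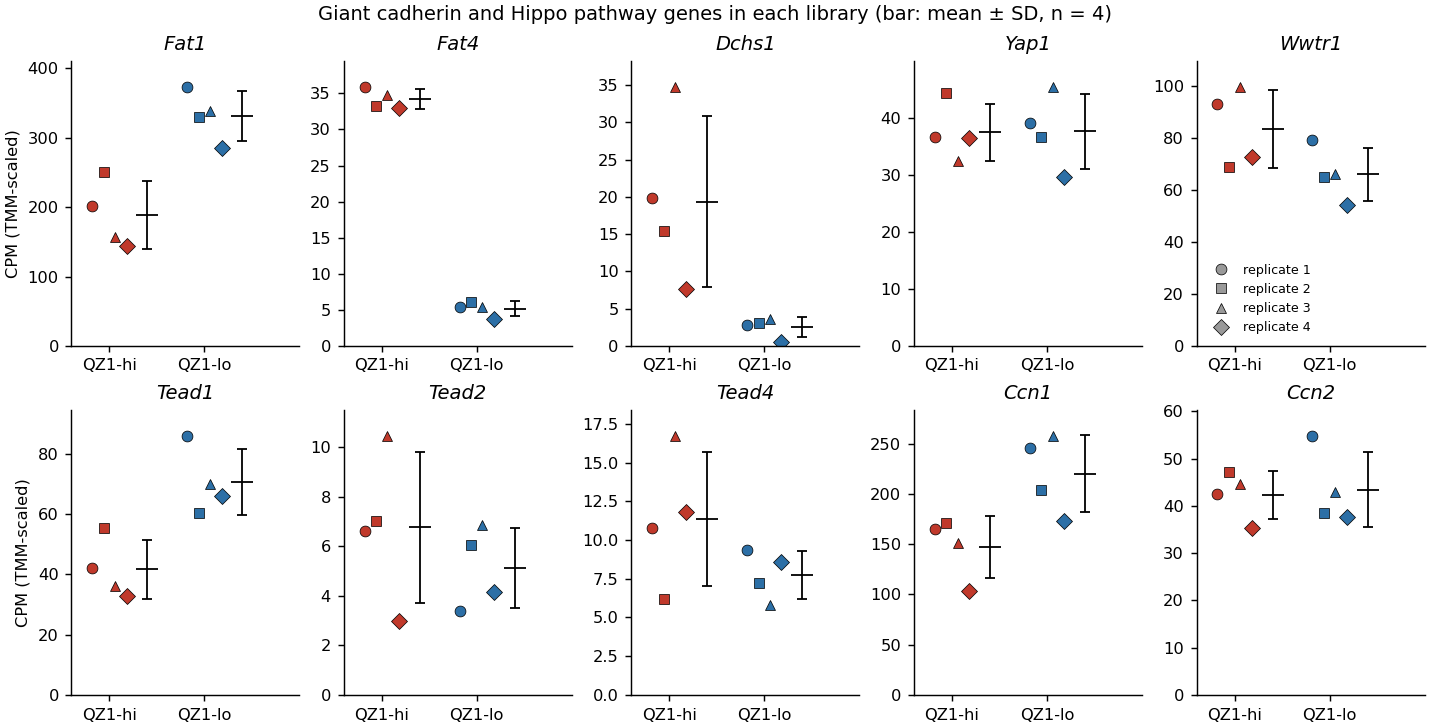
CPM (TMM-scaled) of the 10 genes in each library, with QZ1-hi in red, QZ1-lo in blue, a marker shape per replicate number, and bars for the mean ± SD of 4 libraries. Fat4 sits between 33.0 and 35.9 CPM in QZ1-hi and between 3.72 and 6.06 CPM in QZ1-lo, while the ranges of Yap1 overlap.

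Fat4 (Entrez Gene 329628, chromosome 3, 38884667 to 39011992, plus strand on GRCm38.p6) was high in every QZ1-hi library and low in every QZ1-lo library. The 4 QZ1-hi libraries had 35.9, 33.2, 34.8 and 33.0 CPM. The 4 QZ1-lo libraries had 5.40, 6.06, 5.43 and 3.72 CPM. The populations did not overlap, and the QZ1-hi libraries were close together, with a coefficient of variation of 3.97% over counts of 554 to 847. The means were 34.2 ± 1.36 and 5.15 ± 1.00 CPM (SD, n = 4 each), with a log2 fold change of 2.73 (SE 0.17) and a ratio of means of 6.65. By log2 fold change Fat4 stood at rank 467 of the 15583 genes tested, on the contrast from which the genes were chosen. Of its exonic bases, 8.68% lie under genes annotated on the opposite strand (C230034O21Rik and Gm43539), and the strand setting of the counting is not given in the sources used here.

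Dchs1 (Entrez Gene 233651, chromosome 7, 105752989 to 105788355, minus strand), which encodes the ligand of FAT4, lay on the same side with a far wider spread. Its QZ1-hi libraries had 19.8, 15.4, 34.8 and 7.57 CPM. Its QZ1-lo libraries had 2.77, 3.01, 3.66 and 0.573 CPM, the last from 14 counts. The populations did not overlap, but the highest QZ1-hi library stood 4.59 times above the lowest, where the same ratio was 1.09 for Fat4. The means were 19.4 ± 11.4 and 2.50 ± 1.34 CPM (SD, n = 4 each), with a log2 fold change of 2.94 (SE 0.54). Per kilobase of exon, the ratio of Dchs1 to Fat4 within a library ranged from 0.356 to 1.55 in QZ1-hi and from 0.239 to 1.05 in QZ1-lo, ranges that overlap. Both were therefore higher in QZ1-hi without a shift in their ratio larger than its spread. Of the exonic bases of Dchs1, 5.86% lie under Gm15645, which had at most 14 counts in any library.

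Fat1 (Entrez Gene 14107, chromosome 8, 44933100 to 45052257, plus strand) ran the other way. QZ1-hi libraries had 202, 251, 156 and 144 CPM, and QZ1-lo libraries had 373, 330, 339 and 285 CPM. Every QZ1-lo library was above every QZ1-hi library, with means of 188 ± 48.7 in QZ1-hi and 332 ± 36.5 CPM in QZ1-lo (SD, n = 4 each) and with a log2 fold change of -0.82 (SE 0.18). Within a library, where scaling plays no part, Fat1 was 4.78 to 8.28 times as abundant as Fat4 per kilobase in QZ1-hi and 59.7 to 83.8 times in QZ1-lo. Fat4 thus made up 10.4% to 16.8% of the summed per-kilobase level of the 4 Fat genes in QZ1-hi and 1.15% to 1.60% in QZ1-lo. Fat1 was the most abundant Fat gene in all 8 libraries, with 77.4% to 86.0% of that sum in QZ1-hi and 95.1% to 96.1% in QZ1-lo.

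Markers of several cell types also differed between the populations. The summed level of 6 fibroblast markers was 1572 to 3035 CPM in QZ1-hi and 38.8 to 353 CPM in QZ1-lo, with 6 of 6 called higher. For 6 endothelial markers the sums were 686 to 1695 and 46.0 to 233 CPM, with 6 of 6 called higher, and for 4 mesothelial markers 38.4 to 268 and 5.93 to 36.5 CPM, with 4 of 4 called higher. Of 5 pericyte markers, 1 (Pdgfrb) was called higher, and their sums were 38.4 to 59.2 and 7.69 to 24.1 CPM. Smooth muscle markers summed to 25.0 to 38.8 and 10.3 to 21.5 CPM, with 2 of 4 higher (Myh11 and Tagln) and 1 lower (Cnn1, at most 19 counts). Epithelial markers were mixed, with Epcam, Cdh1, Krt8, Krt18 and Nkx2-1 called lower and the surfactant gene Sftpc called higher, and sums of 3408 to 6375 and 3203 to 4729 CPM that overlap. Ciliated cell markers were lower in 4 of 4 cases, with sums of 64.5 to 182 and 293 to 558 CPM. None of 6 blood markers was called, with sums of 142 to 411 and 208 to 485 CPM, although the sort removed CD45-positive cells. No defining marker was at 0 in every library. The part of these cell types in the levels of Fat4, Dchs1 and Fat1 was not tested.

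**Figure D2:**
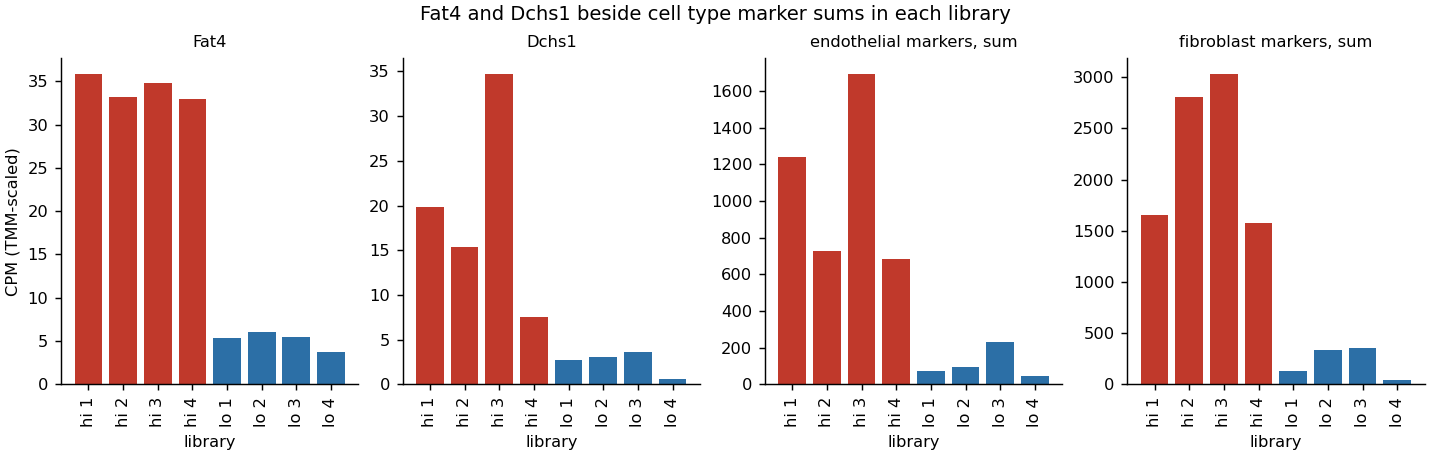
CPM (TMM-scaled) of Fat4 and Dchs1 and the summed CPM of 6 endothelial and 6 fibroblast markers in each library, with QZ1-hi in red and QZ1-lo in blue. QZ1-hi 3 is highest for Dchs1 (34.8 CPM) and for both marker sums, while Fat4 is nearly level over the QZ1-hi libraries.

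Within QZ1-hi, Fat4 was nearly level where the marker sums were not. Fat4 was chosen because it stood out between the populations, and such a choice can favor a small spread. Nothing is therefore read from its evenness, and the part of cell types in it was not tested. The endothelial sum was 1242, 728, 1695 and 686 CPM in libraries 1 to 4, and the fibroblast sum was 1656, 2804, 3035 and 1572 CPM. From highest to lowest, Dchs1 and the endothelial sum shared the order of libraries 3, 1, 2 and 4. None of the other marker sums stood in that order in QZ1-hi. In QZ1-lo the endothelial sum was 70.8, 92.7, 233 and 46.0 CPM. There Dchs1 and the endothelial sum shared a different order, libraries 3, 2, 1 and 4. In QZ1-lo the fibroblast sum (132, 338, 353 and 38.8 CPM) stood in that order too. So did the smooth muscle sum in QZ1-lo (13.95, 14.6, 21.5 and 10.3 CPM). These orders rest on 4 libraries each and were seen after the values were known.

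The co-activators differed little. Yap1 (Entrez Gene 22601, chromosome 9, 7931999 to 8004638, minus strand) had 36.6, 44.4, 32.4 and 36.5 CPM in QZ1-hi. In QZ1-lo it had 39.1, 36.6, 45.4 and 29.6 CPM. The ranges overlapped throughout, and the log2 fold change was -0.01 (SE 0.15) with means of 37.5 ± 5.00 and 37.7 ± 6.56 CPM (SD, n = 4 each). Wwtr1 (Entrez Gene 97064, chromosome 3, 57455644 to 57575910, minus strand) had 93.0, 68.9, 99.5 and 72.5 CPM in QZ1-hi. In QZ1-lo it had 79.0, 64.9, 65.9 and 54.1 CPM. QZ1-hi 1 and 3 were above the QZ1-lo libraries and the others were among them, and the log2 fold change of 0.34 (SE 0.16) was not called. TAZ message exceeded YAP message per kilobase in all 8 libraries, by 3.01 to 5.94 times in QZ1-hi and by 2.81 to 3.92 times in QZ1-lo. With the length of the longest annotated transcript, an alternative chosen after the data were seen, it did so by 1.75 to 3.45 and by 1.63 to 2.28 times. Scaling by library size only turned the sign for Wwtr1, to a log2 fold change of -0.10, and gave -0.49 for Yap1, and under that scaling the median of all genes moved to -0.44.

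**Figure D3:**
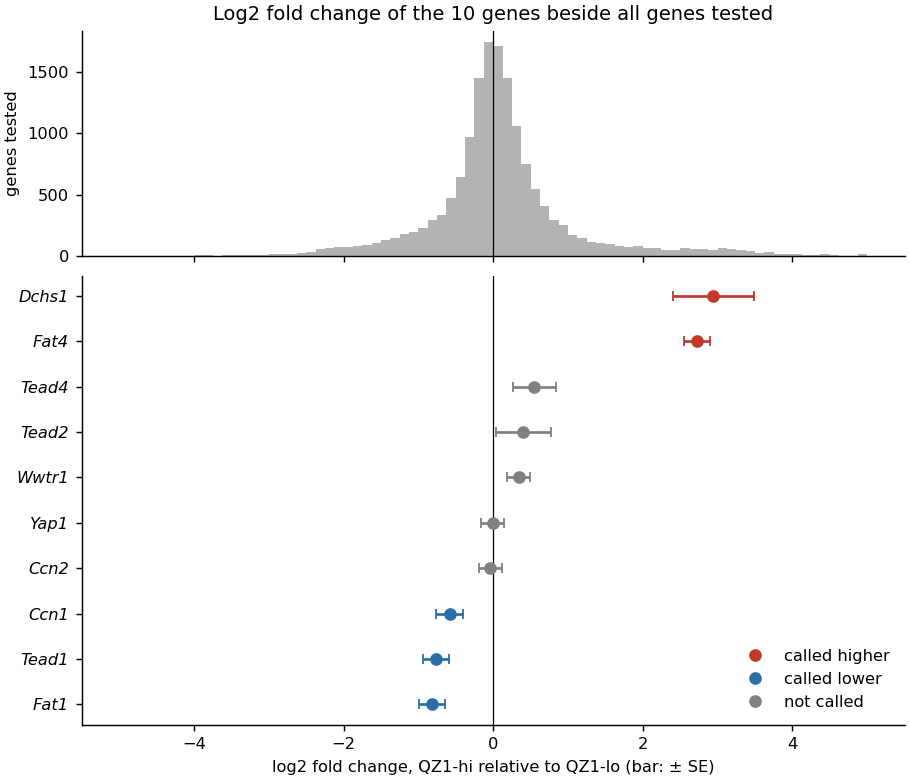
Log2 fold change of QZ1-hi over QZ1-lo for the 10 genes (points, ± SE, red where called higher, blue where called lower, grey where not called) under a histogram of all genes tested, in which values past the ends are placed in the end bins. Dchs1 (2.94) and Fat4 (2.73) lie far to the right, and Fat1 (-0.82), Tead1 (-0.76) and Ccn1 (-0.58) to the left.

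Among the TEAD factors, which give YAP and TAZ their access to DNA, Tead1 was the member with a clear separation. Tead1 (Entrez Gene 21676, chromosome 7, 112679356 to 112906784, plus strand) had 42.2, 55.3, 36.1 and 32.9 CPM in QZ1-hi. In QZ1-lo it had 85.9, 60.5, 70.0 and 65.9 CPM, each above all QZ1-hi libraries. Its log2 fold change was -0.76 (SE 0.18). Tead2 (Entrez Gene 21677, chromosome 7, 45215792 to 45233468, plus strand) ranged from 2.98 to 10.5 CPM in QZ1-hi and from 3.40 to 6.88 CPM in QZ1-lo, with a log2 fold change of 0.40 (SE 0.37). The range of Tead4 (Entrez Gene 21679, chromosome 6, 128227143 to 128300813, minus strand) was 6.17 to 16.7 CPM in QZ1-hi and 5.83 to 9.33 CPM in QZ1-lo, with a log2 fold change of 0.55 (SE 0.29). QZ1-hi 3 was the highest library for both, and neither gene was called. Of the per-kilobase sum of the 4 TEAD genes, Tead1 made up 24.8% to 47.4% in QZ1-hi and 47.5% to 51.7% in QZ1-lo, ranges that only just separate and that overlapped with the longest transcripts (24.9% to 45.4% and 45.2% to 48.6%). Tead4 made up 20.0% to 45.3% and 15.9% to 24.6%, ranges that overlap. Tead3, which is not among the 10 members, made up 11.55% to 15.58% and 16.49% to 21.35%, without overlap. With the longest transcripts its ranges stayed apart (16.61% to 21.54% and 22.72% to 28.73%).

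The CCN genes encode secreted proteins that bind integrins and matrix and are widely used as readouts of YAP and TAZ. Ccn1 (Entrez Gene 16007, chromosome 3, 145646971 to 145649985, minus strand) had 165, 171, 151 and 103 CPM in QZ1-hi. In QZ1-lo it had 246, 204, 258 and 173 CPM, where the lowest library was only just above the highest QZ1-hi library. The log2 fold change was -0.58 (SE 0.18). Leaving out a single library gave -0.68 to -0.41, and the call was lost without QZ1-hi 1, 3 or 4 or QZ1-lo 1, 2 or 3. Ccn2 (Entrez Gene 14219, chromosome 10, 24595442 to 24598683, plus strand) had 42.5, 47.1, 44.7 and 35.3 CPM in QZ1-hi and 54.8, 38.5, 43.0 and 37.6 CPM in QZ1-lo. Its ranges overlapped, with a log2 fold change of -0.04 (SE 0.15). The 2 CCN members therefore did not move alike, and the ratio of Ccn1 to Ccn2 per kilobase was 4.14 to 5.51 in QZ1-hi and 6.36 to 8.49 in QZ1-lo, without overlap. Of the exonic bases of Ccn2, 23.2% lie under Gm15270 on the opposite strand, which is not a row of the table.

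Per kilobase of exon, the order of the 10 genes differed between the populations by at most 2 places for any gene. Ccn1 led in both, at 73.0 ± 15.2 CPM per kb in QZ1-hi and 109 ± 19.2 in QZ1-lo (SD, n = 4 each), above the range of every other member. In QZ1-hi it was followed by Wwtr1 (17.5 CPM per kb), Ccn2 (14.8) and Fat1 (12.0), neighbours whose ranges overlapped, and then below a gap by Yap1 (4.05), Tead4 (3.16) and Tead1 (3.07), which overlapped in turn. Fat4 (2.00), Dchs1 (1.75) and Tead2 (1.41) came last and overlapped with each other. Their ranges also overlapped with that of Tead4, and the range of Dchs1 with that of Tead1. In QZ1-lo the order was Fat1 (21.2), Ccn2 (15.2) and Wwtr1 (13.8), with overlap between neighbours, then Tead1 (5.20) and Yap1 (4.07), which overlapped, then Tead4 (2.15) and Tead2 (1.07), each apart from its neighbours. Fat4 (0.300) and Dchs1 (0.227) came last and overlapped with each other but not with Tead2. With the longest annotated transcript in place of all exons, Yap1 was at 7.10 in QZ1-hi, above the range of the TEAD members, and at 7.13 in QZ1-lo, beside Tead1 at 7.08, so the place of Yap1 depends on the gene length used. Fat4 overlapped with Tead2 and Tead4 in QZ1-hi and lay below the 3 TEAD members in QZ1-lo.

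**Figure D4:**
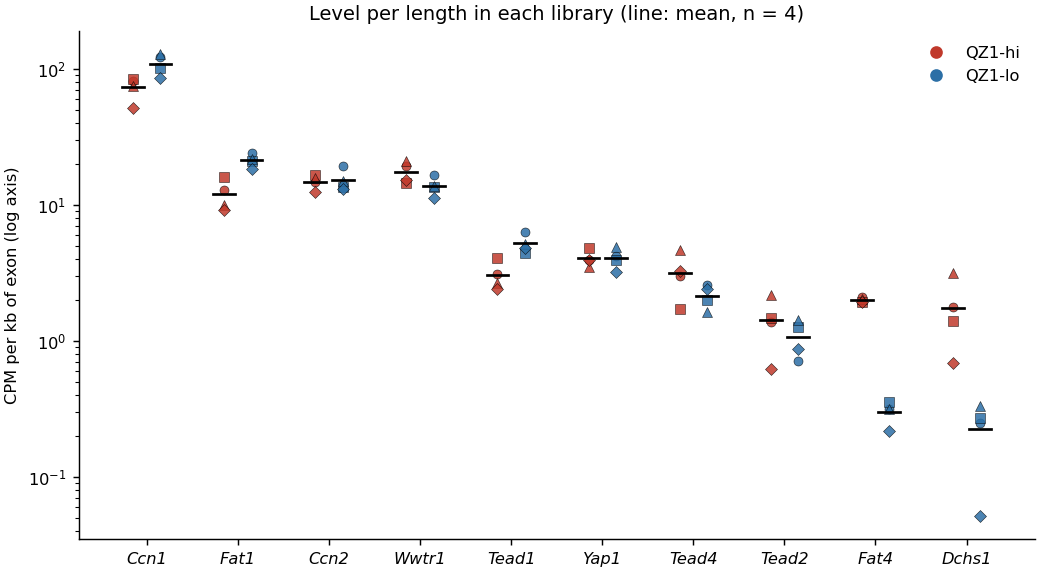
CPM per kb of exon on a log axis for the 10 genes in each library, ordered by their mean in QZ1-lo, with QZ1-hi in red, QZ1-lo in blue and a line at the mean of 4 libraries. The means of Fat4 are 2.00 in QZ1-hi and 0.300 in QZ1-lo and those of Dchs1 1.75 and 0.227, while those of Yap1 are 4.05 and 4.07.

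Beyond the 10 genes, 55 other genes of the pathway were listed by role, of which 54 were in the table and 50 were tested. At an adjusted p under 0.05 (edgeR), 14 were called higher in QZ1-hi (28.0%, beside 9.88% of all genes tested), 7 were called lower (14.0%, beside 8.21%) and 29 were not called. Their median log2 fold change was 0.10 beside 0.02 for all genes tested. The lists were chosen with earlier results of these data known, so nothing is read from these shares. Without QZ1-hi 3, the count of higher calls was 9. Scaling by library size only gave 7 higher and 12 lower. The fibroblast and endothelial marker sums given above moved with the populations here too, and their part in these calls was not tested.

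Of the remaining Fat cadherins, Fat2 and Fat3 did not pass the test. Fat2 had 7.74 ± 3.05 CPM in QZ1-hi and 7.38 ± 1.87 CPM in QZ1-lo, and Fat3 had 3.20 ± 1.08 and 3.90 ± 1.70 CPM (SD, n = 4 each). Their log2 fold changes were 0.07 (edgeR adjusted p = 0.922, SE 0.32) and -0.28 (edgeR adjusted p = 0.712, SE 0.39). Fjx1, whose fly relative modifies Fat and Dachsous cadherins, was filtered out with at most 29 counts in a library. For Dchs2, no row of the count table was matched.

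In the kinase cassette, the core of the pathway, 1 of 11 genes was called higher (9.09%, beside 9.88% of all genes tested), none was called lower (beside 8.21%), and 10 were not called, so the share called higher was near that of all genes. Stk3 (log2 fold change 0.05, SE 0.16) and Stk4 (0.00, SE 0.14), the MST kinases, and Lats1 (-0.22, SE 0.15) and Lats2 (0.39, SE 0.19) did not pass the test, with adjusted p between 0.205 and 0.999 (edgeR). The gene called was Taok2, a kinase that acts on MST kinases, with a log2 fold change of 0.55 (edgeR adjusted p = 0.0482, SE 0.17). Its call held in 9 of 16 alternatives and was lost without QZ1-hi 1, 3 or 4 or QZ1-lo 1, 2 or 4 and with library-size scaling, where the adjusted p was 0.807. Mob1b, a partner of LATS kinases, and the kinase gene Taok3 were lower in every QZ1-hi library than in any QZ1-lo library but were not called, with log2 fold changes of -0.38 (edgeR adjusted p = 0.0932, SE 0.14) and -0.32 (edgeR adjusted p = 0.0823, SE 0.12). Of the exonic bases of Lats2, 42.4% are shared with Gm49361 on the same strand, so its counts are uncertain.

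Scaffolds and regulators were split, with 3 called higher (20.0%, beside 9.88% of all genes tested), 3 called lower (20.0%, beside 8.21%) and 9 not called of 15. Frmd6 (Willin), an upstream activator of the kinases, rose from 8.15 ± 2.67 to 23.3 ± 6.83 CPM (SD, n = 4 each), with a log2 fold change of 1.52 (edgeR adjusted p = 0.0031, SE 0.28). Part of Frmd6 (13.1% of stretches of 50 bases) also occurs in Gm5780. Amotl1, an angiomotin that binds YAP at junctions, had a log2 fold change of 1.14 (edgeR adjusted p = 0.0014, SE 0.18), and Nf2 (Merlin) one of 0.50 (edgeR adjusted p = 0.0316, SE 0.14). Library-size scaling ended the calls of Amotl1 (adjusted p = 0.0977) and Nf2 (adjusted p = 0.918), and the Nf2 call was also lost without QZ1-hi 2 or 3 or QZ1-lo 1, 2 or 4, with adjusted p from 0.0572 to 0.102.

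The lower scaffolds were Ajuba, Wwc1 and Ptpn14. Ajuba, a LIM protein that holds back LATS kinases, fell from 31.6 ± 4.44 CPM in QZ1-lo to 11.8 ± 3.07 CPM in QZ1-hi (SD, n = 4 each), with a log2 fold change of -1.42 (edgeR adjusted p = 0.000949, SE 0.21). Wwc1 (KIBRA), which helps to activate LATS kinases, had a log2 fold change of -0.76 (edgeR adjusted p = 0.00373, SE 0.14). Ptpn14, a phosphatase that binds YAP and is also listed as a target, had -0.47 (edgeR adjusted p = 0.0202, SE 0.12). The Ptpn14 call was lost without QZ1-hi 1, QZ1-lo 2 or QZ1-lo 3, with adjusted p from 0.0509 to 0.055, while Ajuba and Wwc1 were called in 16 of 16 alternatives.

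All 3 nuclear partners tested were called, 2 higher (66.7%, beside 9.88% of all genes tested) and 1 lower (33.3%, beside 8.21%). This list too was chosen with earlier results of these data known, so nothing is read from these shares. Vgll3 and Vgll4, which encode cofactors that bind TEAD factors, had log2 fold changes of 2.65 (edgeR adjusted p = 0.0209, SE 0.69) and 0.93 (edgeR adjusted p = 0.044, SE 0.29). Tead3, the TEAD gene outside the 10, had -0.69 (edgeR adjusted p = 0.0487, SE 0.22). These calls were not equally firm. Vgll3, with 6 to 62 counts in QZ1-lo libraries, was called in 14 of 15 alternatives and lost its call without QZ1-hi 2 (edgeR adjusted p = 0.0576). Its log2 fold change was 3.32 without QZ1-lo 3 and 3.68 with limma voom. The call was lost for Vgll4 without QZ1-hi 1 or 3 or any single QZ1-lo library, with limma voom and with library-size scaling (adjusted p up to 0.281). Tead3 was called in 6 of 16 alternatives and was lost without any of the QZ1-hi libraries and without QZ1-lo 1, 2 or 3, with an adjusted p of up to 0.161. Vgll1 and Vgll2 had 0 counts in every library, which allows at most 0.0894 to 0.179 CPM.

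Of the other CCN genes, 3 were tested, and Ccn3 and Ccn5 were called higher (66.7%, beside 9.88% of all genes tested). Ccn4 was not called. Ccn5, which lacks a domain present in its relatives, had 2.33, 3.46, 6.30 and 2.32 CPM in QZ1-hi and 0.268, 0.0407, 0.543 and 0.450 CPM in QZ1-lo, where it had 1 to 15 counts. The populations did not overlap (log2 fold change 3.44, edgeR adjusted p = 0.00457, SE 0.67). Ccn3 had a log2 fold change of 1.41 (edgeR adjusted p = 0.0168, SE 0.35), and its call was lost without QZ1-hi 3 (adjusted p = 0.0606) and with library-size scaling (adjusted p = 0.0766). For Ccn4 the log2 fold change was 1.36 (edgeR adjusted p = 0.401, SE 0.96), from 0 to 83 counts a library, and Ccn6 was filtered out with at most 10 counts. None of the 3 tested was called lower, the side on which Ccn1 lay, beside 8.21% of all genes tested. The list was chosen with earlier results of these data known, so nothing is read from these counts.

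The listed YAP and TAZ target genes went both ways, with 6 called higher (31.6%, beside 9.88% of all genes tested), 4 called lower (21.1%, beside 8.21%) and 9 not called of 19. The list was put together with earlier results of these data known, Nt5e among them. Those called higher were Igfbp3, which encodes a carrier of insulin-like growth factors, the mesenchymal transcription factor Foxf2, the matrix gene Ccdc80, the RNA-binding protein gene Rbms3, the receptor tyrosine kinase Axl and the ARF regulator Asap1. Igfbp3 had 44.3, 41.3, 45.8 and 11.9 CPM in QZ1-hi and 2.80, 4.76, 5.94 and 0.246 CPM in QZ1-lo (log2 fold change 3.38, edgeR adjusted p = 0.00451, SE 0.66). With limma voom the log2 fold change of Igfbp3 was 4.05. Foxf2, with 4 to 14 counts in QZ1-lo libraries, had 3.03 (edgeR adjusted p = 0.00245, SE 0.53), and Ccdc80 had 2.09 (edgeR adjusted p = 0.000853, SE 0.30). Rbms3 had 28.7 ± 0.243 CPM in QZ1-hi and 9.80 ± 2.85 CPM in QZ1-lo (SD, n = 4 each), with a log2 fold change of 1.55 (edgeR adjusted p = 0.000594, SE 0.20). Its QZ1-hi values came from 483 to 679 counts a library, and their small spread over 4 libraries is not read as a trait of the gene. Asap1 had 0.91 (edgeR adjusted p = 0.00345, SE 0.17) and lost its call with library-size scaling (adjusted p = 0.212). Axl had 0.94 (edgeR adjusted p = 0.0424, SE 0.29), was called in 8 of 16 alternatives and lost its call without QZ1-hi 2, 3 or 4 or QZ1-lo 1, 2 or 3, with adjusted p from 0.0769 to 0.135.

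The targets called lower were F3, Nt5e, Gadd45b and Ptpn14. F3 (tissue factor, the starter of coagulation) fell from 123 ± 11.4 CPM in QZ1-lo to 38.0 ± 10.7 CPM in QZ1-hi (SD, n = 4 each), with a log2 fold change of -1.70 (edgeR adjusted p = 0.000278, SE 0.19). Nt5e (CD73, which makes adenosine from AMP) had -1.53 (edgeR adjusted p = 7.47e-05, SE 0.11), and Gadd45b, a stress response gene, had -0.80 (edgeR adjusted p = 0.00343, SE 0.15). F3, Nt5e and Gadd45b were called in 16 of 16 alternatives. Among the targets not called were Ankrd1, an ankyrin repeat gene often used as a YAP readout, at 2.51 ± 1.16 and 2.37 ± 0.625 CPM (SD, n = 4 each; log2 fold change 0.08, edgeR adjusted p = 0.929, SE 0.43), and the junction gene Amotl2 (0.09, edgeR adjusted p = 0.761, SE 0.15).

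**Figure D5:**
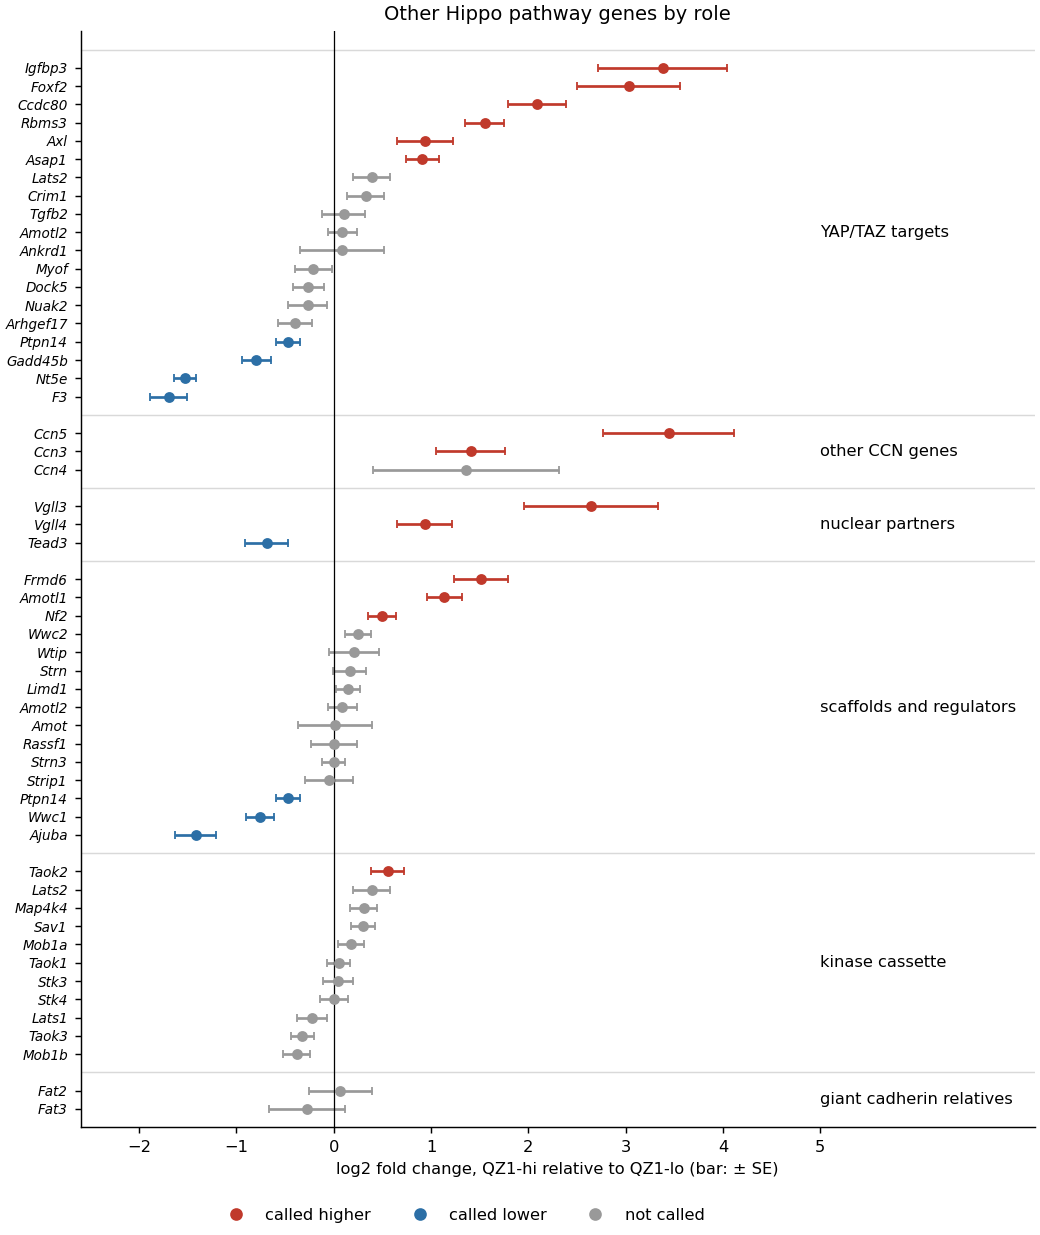
Log2 fold change of QZ1-hi over QZ1-lo (± SE) for the 50 other Hippo pathway genes tested, grouped by role, with genes in more than 1 list drawn in each, in red where called higher, blue where called lower and grey where not called. The kinase cassette runs from -0.38 (Mob1b) to 0.55 (Taok2), while YAP/TAZ targets run from -1.70 (F3) to 3.38 (Igfbp3).

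By the distance between gene-centred log2 CPM over the 8 libraries (root mean square, in log2 units), the 5 genes outside the lists nearest to Fat4 were Zfp521 (0.277), Pdzrn3 (0.282), Clec9a (0.301), Tnfsf10 (0.318) and Hdgfl3 (0.337), where the median over all genes tested was 1.42. Zfp521, a zinc finger gene, had 15.7 ± 3.12 CPM in QZ1-hi and 2.17 ± 0.743 CPM in QZ1-lo (SD, n = 4 each). Pdzrn3, a ubiquitin ligase gene, had 14.9 ± 3.97 and 2.07 ± 0.209 CPM. For Yap1 the 5 nearest genes were Ptdss2 (0.0846), S1pr2 (0.0871), Zfp706 (0.0881), Cisd2 (0.0886) and Gab1 (0.092), where the median over all genes was 0.446. These distances describe the same 8 libraries, which differ in depth, and carry no test.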

How the data were processed

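Bulk RNA-seq of sorted QZ1-hi and QZ1-lo cells from Eml4-Alk lungs was measured in 4 libraries each. The deposited values are raw counts that the authors obtained with Rsubread and did not normalize. The submitters' processing notes name mm10 and DESeq2, and the aligner, annotation and strand setting are not given in the sources used here. Symbols were matched to 25275 of 27179 Entrez identifiers. Counts were fitted in R 4.3.3 with edgeR 4.0.16 (TMM, filterByExpr with minimum count 10 and minimum total 15, quasi-likelihood test, Benjamini-Hochberg over 15583 genes, threshold 0.05, common dispersion 0.113, 6 residual degrees of freedom). Each SE was obtained as |log2 fold change| over the root of the F statistic. Levels per length use the union of GENCODE M21 exons. Alternatives were DESeq2 1.42.0, limma 3.58.1 voom with quality weights, other scalings and filters, robust shrinkage, and each library left out. The procedure was also run on simulated data with known changes, and no result given here rests on that run.

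The members and lists were chosen with earlier results of these data known. Named genes were the 10 members, the other listed pathway genes, the cell type markers and the 5 genes nearest to Fat4 and to Yap1 by root mean square distance. Replicate numbers follow accession order. The series' design text calls the libraries of a population biological replicates, and no label says which QZ1-hi and QZ1-lo libraries share a mouse. Library totals were 18380918 to 26847938 counts.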

Additional observations from a re-analysis of the deposited data

Results flagged for a closer look

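Of 62 groups of 4 libraries looked at (31 genes, the 10 members and the called pathway genes, in each population), 4 held a library far from the others by Dixon's criterion, where chance flags about 1 in 20 groups. In QZ1-hi 3, Nf2 had 56.9 CPM against 42.7 to 43.9 CPM in the other QZ1-hi libraries, Amotl1 had 133 CPM against 95.0 to 100.5 CPM, and Ccn3 had 15.03 CPM against 7.09 to 7.76 CPM. In QZ1-hi 4, Igfbp3 had 11.9 CPM against 41.3 to 45.8 CPM. None of the 10 members was among these, although QZ1-hi 3 was also the highest library for Dchs1, Tead2 and Tead4.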

How the results depend on the processing

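The calls of 9 of the 10 members were the same in 16 of 16 alternatives, and that of Ccn1 in 10 of 16. Scaling by library size only moved the most values: all genes called went from 1540 higher and 1280 lower to 882 higher and 2509 lower (26.0% of calls higher in place of 54.6%), other pathway genes to 7 higher and 12 lower, and log2 fold changes to -1.28 for Fat1, 2.28 for Fat4, -0.49 for Yap1, -0.10 for Wwtr1, -1.24 for Tead1, -1.03 for Ccn1 and -0.51 for Ccn2. With a library left out, other pathway genes numbered 9 to 12 higher and 5 to 7 lower, the lowest higher count without QZ1-hi 3. The members' log2 fold changes then ranged from 2.61 to 2.82 for Fat4, 2.49 to 3.25 for Dchs1, -1.01 to -0.68 for Fat1 and -0.95 to -0.63 for Tead1, and Yap1 (-0.12 to 0.10) and Ccn2 (-0.11 to 0.10) took either sign. Using the longest annotated transcript in place of all exons moved the mean level per kb over 8 libraries to 1.22 for Fat4, 7.11 for Yap1, 5.63 for Tead1 and 1.75 for Tead2, and library-size scaling moved it to 1.04 for Fat4. No paired analysis was possible because the labels do not say which QZ1-hi and QZ1-lo libraries share a mouse. Depth limits most the genes with few counts in QZ1-lo libraries, among them Ccn5 (1 to 15), Foxf2 (4 to 14), Vgll3 (6 to 62) and Ccn4 (0 to 70), and of the members Dchs1 (14 to 101).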
